A study of Arabidopsis thaliana with 4 samples.

Results

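Among Arabidopsis genes known in the reference table by a bare locus number, 8 nuclear genes had little or no signal in intact roots and a clear signal in root cells that had been turned into protoplasts and sorted. They were selected on their measured values, by a deposited signal over 200 on both sorted-protoplast arrays and under 40 on both whole-root arrays. The search ran over 11885 probe sets that stand for 11751 such genes, out of 22746 probe sets on the array. The calmodulin-like gene AT1G76640 was left out by name, as were AT2G26380, AT1G33590 and AT1G33600. So was a block of chromosome 2 loci that copies the mitochondrial genome. The genes are AT5G58680, AT3G15650, AT2G22760, AT5G62360, AT3G01830, AT3G28600, AT5G57510 and AT1G07160.

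The study compared 2 preparations of Columbia seedling roots, 6 days after germination, on Affymetrix ATH1 arrays, with 2 arrays each. In the first, here sorted protoplasts, the cells were freed of their walls and passed through a cell sorter, and every sorted cell was kept rather than a marked cell type. In the second, here whole roots, RNA came from intact roots. All roots of both groups had first spent 1 hour on 140 mM NaCl, so every value below is from salt-treated tissue, and no untreated array was analysed here. The labels do not say whether replicates came from separate plantings, so the spread behind every p-value is that of these arrays and may be technical. On each array 30.3% to 33.2% of probe sets had a signal over 200 and 34.2% to 37.6% had one under 40.

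To make protoplasts, enzymes digest the cellulose and pectin of the wall. Plants read broken wall pieces as a sign of injury or attack: receptors at the cell surface set off calcium influx and kinase cascades, and transcription factors such as the WRKY proteins switch on response genes within minutes to hours. Genes with a low signal in an intact root and a high signal after such handling are candidates to be left out when sorted cells are profiled. Whether wall digestion, sorting or the mix of cells lies behind the values of the 8 genes was not tested. The gene tables used here give these 8 genes no name beyond the locus number and, for some, a sequencing clone, so no role is stated for them.

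For AT5G58680 the whole-root arrays gave only a background reading, below the median of the bacterial control probe sets described further on. Its signal was 308 and 671 on sorted-protoplast replicates 1 and 2, against 4.29 and 3.41 on whole-root replicates 1 and 2. Set against the highest of those controls on each whole-root array, the mean sorted-protoplast signal (of log2 values, n = 2 each) was at least 20.1-fold higher. The fitted difference on the log2(signal + 16) scale used here, 4.57 ± 0.41 (SE, n = 2 each), depends on the offset for a gene at background and is no measure of the fold.

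AT3G15650 had signals of 895 and 332 in sorted protoplasts, against 11.6 and 24.3 in whole roots. Its whole-root signals did not exceed the highest control on either array, so its sorted-protoplast mean was at least 24.2-fold higher, and the fitted log2 difference of 4.08 ± 0.48 (SE, n = 2 each) depends on the offset. Unlike most of the others it was higher on the first sorted-protoplast array than on the second. In the RefSeq gene table it partly overlaps GRX4, a glutaredoxin gene, and whether transcripts of that neighbour reach its probe set was not tested.

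AT2G22760 lay closest to the lower limit for sorted protoplasts. Its signals were 202 and 951 in sorted protoplasts and 9.35 and 25.8 in whole roots, with a log2 difference of 3.82 ± 0.61 (SE, n = 2 each). AT3G01830 had a similar imbalance, with 228 and 1028 in sorted protoplasts and 22.8 and 29.7 in whole roots, and a difference of 3.58 ± 0.59. These were the least certain differences of the set, because the second sorted-protoplast array read 4.71 times the first for AT2G22760 and 4.52 times for AT3G01830. The span of AT3G01830 in the gene table also holds LYK2, a receptor-like kinase gene with LysM domains, and the noncoding gene AT3G01055, and which of them its probe set reports was not tested.

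AT5G62360 followed the same order of arrays. It had 238 and 767 in sorted protoplasts, against 15.9 and 19.5 in whole roots. Both whole-root signals were below the highest control, so the sorted-protoplast mean was at least 18.9-fold higher, and the fitted log2 difference of 3.73 ± 0.50 (SE, n = 2 each) depends on the offset. AT1G07160 had a difference of 3.19 ± 0.43, from signals of 237 and 458 in sorted protoplasts and 12.5 and 34.3 in whole roots. For AT1G07160 the lower sorted-protoplast signal was 6.90 times the higher whole-root signal.

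Closest between replicates were AT3G28600 and AT5G57510. AT3G28600 had 555 and 412 in sorted protoplasts and 32.6 and 19.4 in whole roots, a log2 difference of 3.58 ± 0.36 (SE, n = 2 each). AT5G57510 had 407 and 349 in sorted protoplasts and 24.4 and 17.5 in whole roots, a difference of 3.42 ± 0.34. Both arrays of sorted protoplasts gave nearly the same value for these 2 genes, which differed between replicates by 1.35 and 1.17 times. For these and the other genes too the log2 difference depends on the offset and is no measure of the fold. That of AT5G57510 was 3.94 with an offset of 4 and 2.38 with an offset of 64.

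**Figure D1:**
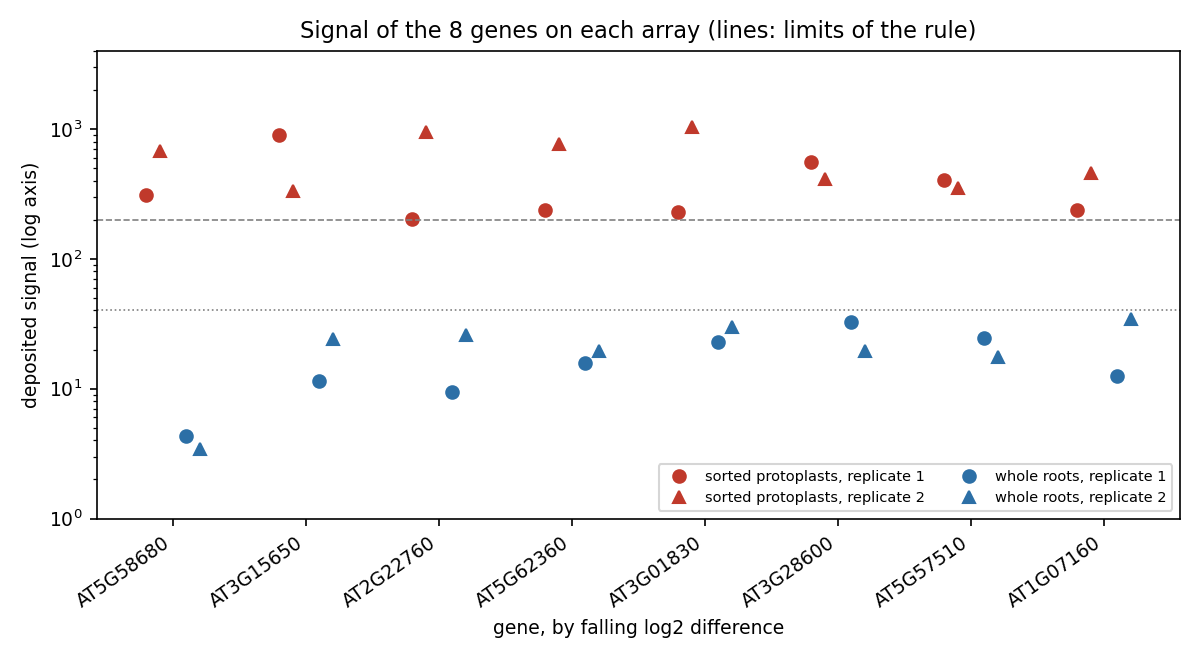
Deposited signal (log axis) of the 8 genes on each of the 4 arrays, ordered by falling log2 difference, with sorted protoplasts in red and whole roots in blue, replicate 1 as circles and replicate 2 as triangles. The dashed line is the limit of 200 and the dotted line the limit of 40 that chose the genes, so the gap between the colours follows from the choice.

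The median log2 difference over the 8 genes was 3.66, or 3.54 with whole-root signals below the highest control raised to it, beside a median of -0.16 over the 13647 probe sets kept in the test. All 8 passed the filter on low signal, which they could do through their sorted-protoplast values alone. In limma's test, with Benjamini-Hochberg adjustment over all of these, 8 of the 8 were called higher, against 6.38% of all probe sets tested. The genes were chosen on this same contrast, so nothing is read from that count.

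Whether the 8 genes were transcribed at all in whole roots cannot be read from the deposited values alone, which come without detection calls. The array carries 27 control probe sets for Bacillus subtilis genes, which are not plant genes, and their signals serve as a measured floor. Their signals ranged from 0.381 to 19.0 and from 0.512 to 22.8 on the sorted-protoplast arrays, and from 0.317 to 20.9 and from 0.718 to 24.4 on the whole-root arrays. On both sorted-protoplast arrays all 8 genes exceeded the highest control. On each whole-root array 3 of the 8 did so. AT3G01830 alone exceeded it on both whole-root arrays, at 22.8 and 29.7. AT5G58680, AT3G15650 and AT5G62360 exceeded it on neither, and AT5G58680 was below the median control on both. AT3G28600 and AT5G57510 exceeded it only on the first whole-root array, and AT2G22760 and AT1G07160 only on the second. For these 4 and AT3G01830 the whole-root signal was thus not below the floor on every array.

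**Figure D2:**
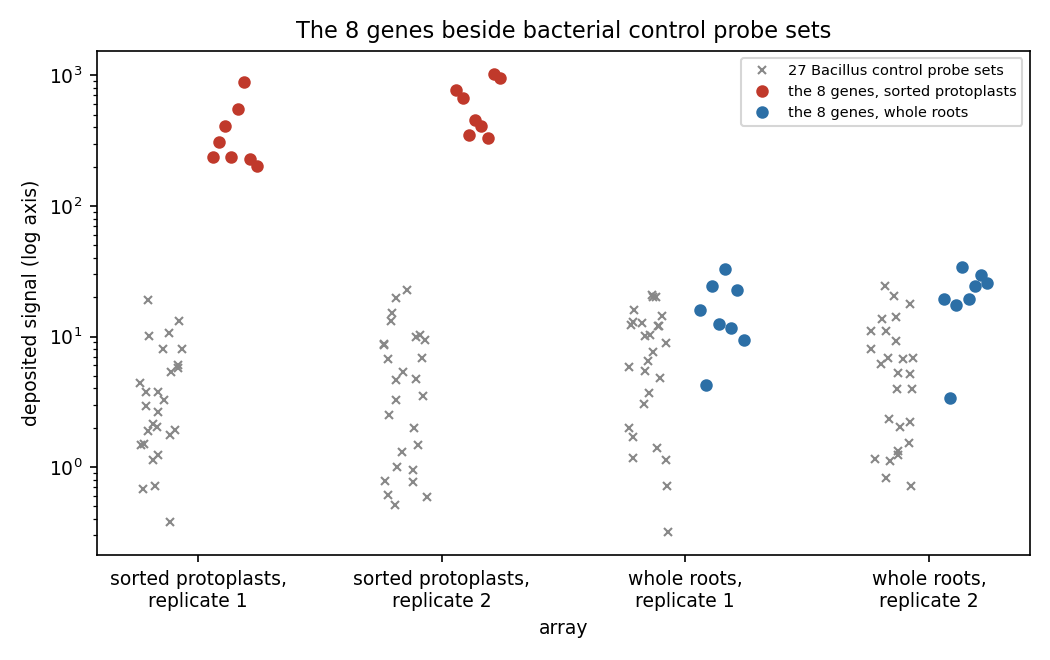
Deposited signal (log axis) of the 8 genes (filled circles) beside the 27 Bacillus control probe sets (crosses) on each array, sideways shifts being only for legibility. The genes lie above every control on both sorted-protoplast arrays and lie among or just above the upper controls on the whole-root arrays, except AT5G58680, which lies below the median control.

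Signals on this pattern were rare on the array. Of 22746 probe sets 35, or 0.154%, were within the same limits, whatever their gene, and 8 were within the opposite limits, under 40 in sorted protoplasts and over 200 in whole roots. Of the 7083 probe sets under 40 on both whole-root arrays, 88.3% were under 40 on both sorted-protoplast arrays as well. Among the 35 were the 8 genes, AT1G76640 and AT2G26380, the plastid genes psbN and rps16, 2 probe sets that match several genes and 21 with no gene listed in the annotation used here. No nuclear gene with a symbol was within the limits, out of 1482 probe sets for such genes. A share of 0.154% leaves room for few among so small a number, and 8730 probe sets have no gene listed. Nothing is therefore read from that absence.

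Among probe sets annotated to a single gene with a symbol, only those of 2 plastid-encoded genes were within the limits. The photosystem gene psbN had 235 and 849 in sorted protoplasts, against 27.6 and 17.3 in whole roots, a log2 difference of 3.61. The plastid ribosomal protein gene rps16 had 223 and 502 in sorted protoplasts and 23.1 and 18.8 in whole roots, a difference of 3.25. As for 5 of the 8 nuclear genes, both were higher on the second sorted-protoplast array.

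**Figure D3:**
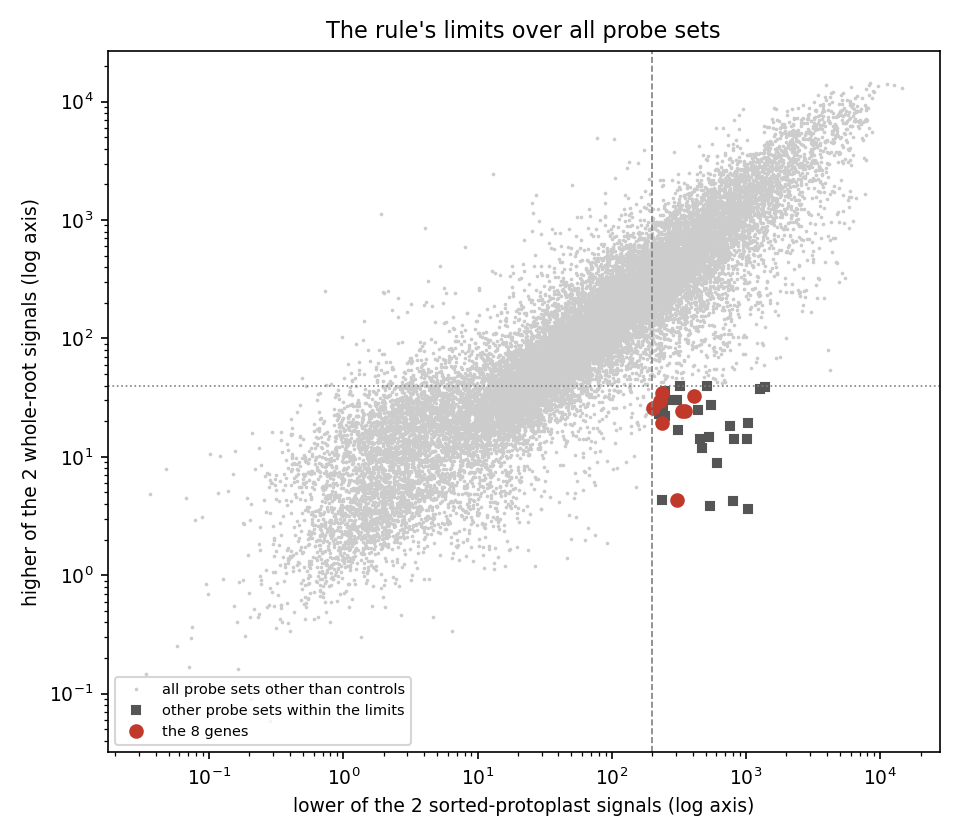
Lower of the 2 sorted-protoplast signals (x, log axis) against the higher of the 2 whole-root signals (y, log axis) for each probe set, with the limits as lines. The 8 genes (red) and the other 27 probe sets within the limits (dark squares) fill the lower right corner, next to the many probe sets just across either line.

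The limits cut through a continuous range. Just inside the whole-root limit were AT1G07160, at 34.3 on its higher whole-root array, and AT3G28600, at 32.6. Just outside it was AT3G53600, with 660 and 905 in sorted protoplasts and 41.9 and 28.7 in whole roots. The next was AT5G24070, with 696 and 2250 in sorted protoplasts and 16.1 and 42.7 in whole roots. Just inside the sorted-protoplast limit were AT2G22760, at 202 on its lower array, and AT3G01830, at 228. AT1G14550 missed that limit with 186 and 2106 in sorted protoplasts and 37.7 and 26.5 in whole roots. AT2G32140 missed it with 174 and 270 in sorted protoplasts, against 18.2 and 3.92 in whole roots. With limits of 50 and 150, 24 locus-named genes qualified, and with limits of 30 and 300 only 3 of the 8 did, namely AT5G58680, AT3G15650 and AT5G57510.

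Most of the 8 genes, but not AT3G28600 and AT5G57510, differed between the sorted-protoplast replicates by more than the median probe set of like signal. Of the 8, 5 were higher on replicate 2 (AT5G58680, AT2G22760, AT5G62360, AT3G01830 and AT1G07160) and 3 on replicate 1 (AT3G15650, AT3G28600 and AT5G57510). The median size of the log2 difference between the 2 arrays was 1.24, against 0.43 over the 1924 probe sets whose mean sorted-protoplast signal lay in the same range, from 347 to 628. Over the 169 of these that were called higher in sorted protoplasts the median size was 0.63. A call is easier with close replicates, so that value may be held down by how the 169 were chosen. With the sign kept, the median of replicate 2 minus replicate 1 was 1.00 for the 8 genes, -0.16 over the 1924 probe sets and 0.00 over the 169. A ratio over 2 between the arrays was found for 5 of the 8 genes and for 17.3% of the 1924 probe sets. With 1 array on each side these are descriptions of 2 arrays, without a test.

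**Figure D4:**
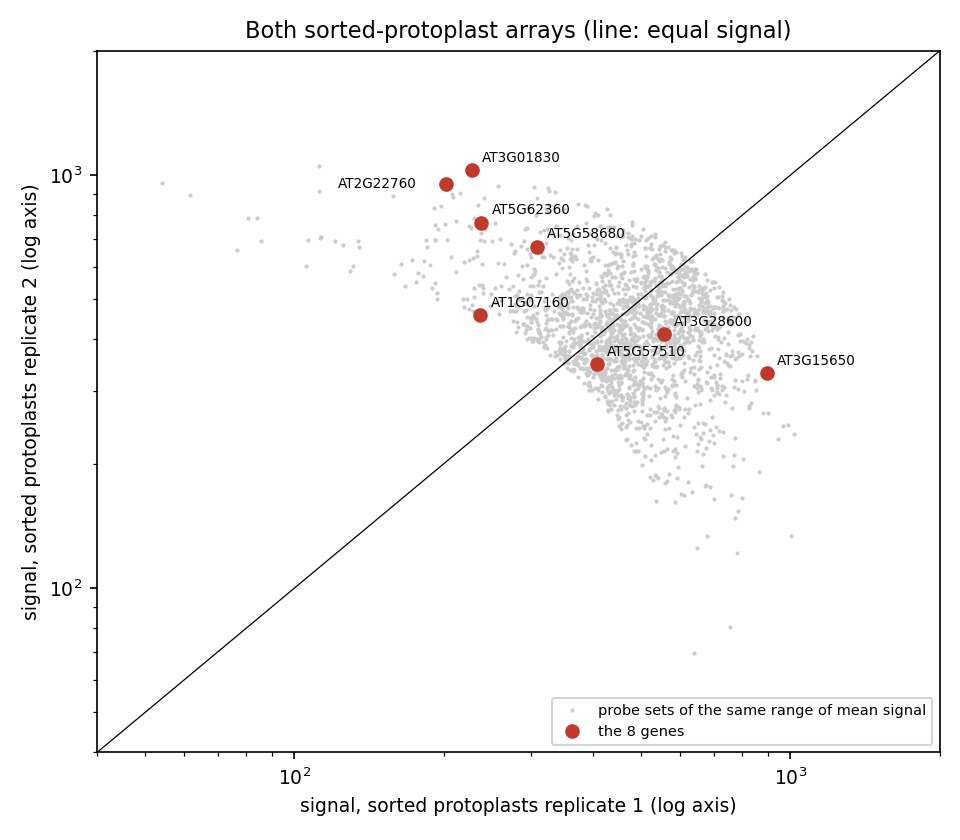
Signal on sorted-protoplast replicate 1 (x) and replicate 2 (y), both on log axes, for the 8 genes (red) and for the 1924 probe sets of the same range of mean signal (grey), with a line of equal signal. Of the 8, AT3G01830 and AT2G22760 lie farthest above the line and AT3G15650 farthest below it, while AT5G57510 and AT3G28600 lie near it.

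Other measures differed between the same arrays. The mean log2(signal + 16) of 69 plastid probe sets was 9.21 and 10.22 on sorted-protoplast replicates 1 and 2. It was 7.22 and 6.88 on whole-root replicates 1 and 2. Signals of the bacterial and phage spike-ins added before hybridization averaged 9.32 and 9.99 in sorted protoplasts, as log2 without an offset. In whole roots they averaged 9.42 and 8.96. The ratio of 3' to 5' signal for GAPDH, often read as a sign of RNA integrity, was 3.45 and 9.96 in sorted protoplasts and 15.0 and 4.56 in whole roots. The part of the RNA amplification in this ratio was not tested. When arrays were scaled on the spike-ins, the median of replicate 2 minus replicate 1 over the 8 genes became 0.36. This scaling divides all signals of an array by the same factor, so probe sets of like signal shift too. The value therefore does not show that the 8 genes came closer to those probe sets. The part of these measures in the replicate differences was not tested.

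No 2 of the 8 genes lie next to each other. There are 3 on chromosome 3, 3 on chromosome 5 and 1 each on chromosomes 1 and 2. Their neighbours offer values that did not enter the choice. Taking the 3 genes on each side of each of the 8 in the RefSeq gene table, 20 of 48 had a probe set of their own and 14 were tested. Of these 14, limma called 2 higher and 0 lower, against 6.38% higher and 4.11% lower over all probe sets tested. Their median log2 difference was 0.15.

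Of the 2, AT3G28580 lies 2 places before AT3G28600. AT3G28580 had 123 and 227 in sorted protoplasts, against 26.5 and 13.9 in whole roots, and differed by 2.36 ± 0.39 on the log2 scale (SE, n = 2 each, limma adjusted p = 0.00524). It was higher on both sorted-protoplast arrays than on either whole-root array. Between them lies AT3G28590, with 35.2 and 72.9 in sorted protoplasts and 17.1 and 5.14 in whole roots, which was under the filter and not tested. On the other side AT3G28610, with 29.6 and 63.4 in sorted protoplasts and 20.8 and 22.6 in whole roots, and AT3G28620, with 18.5 and 14.5 in sorted protoplasts and 1.97 and 14.1 in whole roots, were not tested either. AT3G28600 was the only one of these 5 genes over 200 on both sorted-protoplast arrays. It was chosen by that limit, so nothing is read from this.

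The other neighbour called was AT5G57500, just before AT5G57510. Its signals were 320 and 284 in sorted protoplasts and 118 and 95.7 in whole roots, and differed by 1.37 ± 0.34 on the log2 scale (SE, n = 2 each, limma adjusted p = 0.0342), so it was measured in both preparations. That call was lost with spike-in scaling (log2 difference 0.96, limma adjusted p = 0.375), without the filter (limma adjusted p = 0.0826) and without sorted-protoplast replicate 1 (limma adjusted p = 0.0668). Leaving out whole-root replicate 1 or 2 ended both neighbour calls (limma adjusted p = 0.0654 and 0.103 for AT3G28580, 0.173 and 0.2 for AT5G57500). Without either sorted-protoplast array AT3G28580 fell under the filter and was not tested. The remaining tested neighbours had differences from -1.003, for AT3G15630 near AT3G15650, to 1.42, for AT1G07135 near AT1G07160. For AT1G07135 the signals were 195 and 488 in sorted protoplasts and 115 and 97.4 in whole roots (limma adjusted p = 0.0738). Next to AT2G22760, AT2G22750 had 0.996 and 49.4 in sorted protoplasts and 4.42 and 4.33 in whole roots, and was not tested. NAI1, on the other side, had 138 and 323 in sorted protoplasts and 172 and 206 in whole roots. AT2G22760 was chosen on its values and these genes were not, so no contrast between them is read.

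**Figure D5:**
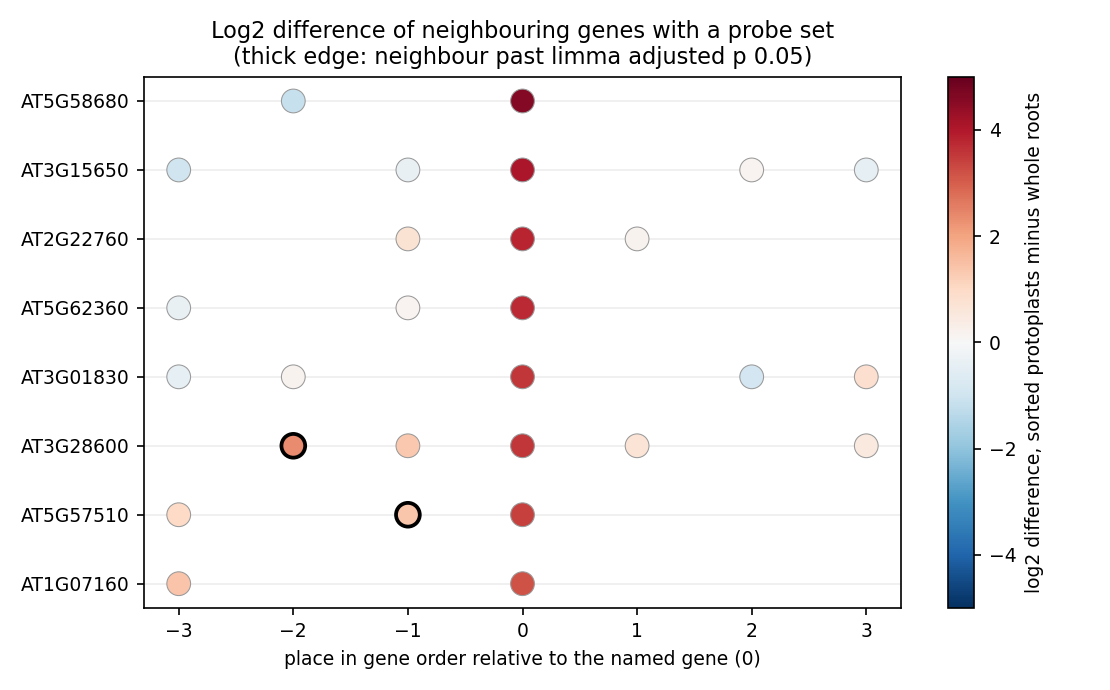
Log2 difference (colour), sorted protoplasts minus whole roots, of each gene with a probe set within 3 places of the 8 genes, which stand at place 0. Thick edges mark AT3G28580 and AT5G57500, the 2 neighbours called higher, and gaps are genes with no probe set of their own.

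Genes of the early response to elicitors and wall damage are given beside the 8, whose part in that response was not tested. Of 30 such genes listed, 8 had a probe set of a single gene, 8 were tested, and limma called 7 higher and 0 lower, against 6.38% higher over all probe sets. WRKY22, a transcription factor of the elicitor response, had 950 and 2177 in sorted protoplasts and 74.0 and 64.03 in whole roots, its lower sorted-protoplast signal being 12.8 times its higher whole-root signal (limma adjusted p = 0.00079). CML38, a calmodulin-like calcium sensor, had 1201 and 2301 in sorted protoplasts and 92.1 and 77.2 in whole roots, a log2 difference of 4.06 ± 0.41 (SE, n = 2 each, limma adjusted p = 0.000566). PUB24, a ubiquitin ligase, was the 1 not called, at 0.47 ± 0.41 (limma adjusted p = 0.508). Of these 8 tested genes 7 were higher on sorted-protoplast replicate 2 than on replicate 1. On both whole-root arrays all 8 were above the limit of 40 that the locus-named genes were chosen to lie under. The list was drawn up with earlier results of these data known, so its count is no independent evidence. Without whole-root replicate 1 only 2 of its genes were called higher, and without whole-root replicate 2 only 4, while 6 were called with no filter or with spike-in scaling.

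Of 18 abscisic acid and osmotic response genes listed, 5 had a probe set and 3 were tested, and limma called 0 of them higher or lower, with 0 at an unadjusted p under 0.05. Their log2 differences were 0.13 for the dehydrin COR47, -0.13 for the dehydrin LTI30 and -0.47 for LEA4-5. The single tested gene of heat shock and protein folding, the immunophilin gene AT5G48570, was higher at 2.09 ± 0.42 (limma adjusted p = 0.014), but not with spike-in scaling or without the filter. No jasmonate gene of the 16 listed had a probe set of a single gene.

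Markers of root cell types also differed between the preparations, beside 6.38% called higher and 4.11% called lower over all probe sets tested. Of 7 markers of root hairs and epidermis listed, 3 had a probe set of a single gene, and all 3 were lower in sorted protoplasts, with log2 differences of -2.39 ± 0.35 for the expansin gene EXPA18, -2.29 ± 0.38 for ATMYC1 and -1.95 ± 0.39 for the expansin gene EXPA7 (SE, n = 2 each, limma adjusted p from 0.00301 to 0.0135). Without the filter 2 of the 3 were called lower. Their summed signal was 344 and 409 in sorted protoplasts, against 1713 and 2057 in whole roots. Of 6 root cap markers listed, 2 had a probe set and were tested, and both were higher, AT4G04460 at 2.27 ± 0.36 and the carboxypeptidase gene SCPL48 at 1.96 ± 0.34 (limma adjusted p = 0.00439 and 0.0072), with sums of 8076 and 8919 in sorted protoplasts and 2083 and 2036 in whole roots. Spike-in scaling left 1 of these 2 calls. The others on the root cap list, SMB, BRN1, BRN2 and RNS3, had no probe set of a single gene. Whether AT4G04460 and SCPL48 report the root cap alone was not tested. Of 11 stele and vascular markers listed 3 were tested and 1 was higher, the xylan gene IRX15 at 1.46 ± 0.37 (limma adjusted p = 0.0343), a call lost with spike-in scaling, without the filter and without sorted-protoplast replicate 1, and the sums were 631 and 402 in sorted protoplasts and 313 and 334 in whole roots. Of 10 genes of shoot photosynthesis listed, the 2 tested, RCA and LHCB4.1, missed the threshold, though 1 was called lower without sorted-protoplast replicate 1, with sums of 279 and 142 in sorted protoplasts and 320 and 437 in whole roots. The only cortex marker with a probe set, AT1G62500, had 17.5 and 2.87 in sorted protoplasts and 32.8 and 16.9 in whole roots and was under the filter. Without whole-root replicate 1, and likewise without replicate 2, 0 of the marker genes and 0 of the heat shock genes passed the threshold. No marker was listed at 0. In bulk RNA, more cells of a type and more RNA per cell cannot be told apart, and the part of cell type shares in the values of the 8 genes was not tested.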

How the data were processed

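Each of the 4 samples has 1 Affymetrix array, of the ATH1 design by the platform of the probe annotation. Per the labels' protocols, RNA was amplified in a 2-cycle procedure and labelled with biotin. The authors deposited signal intensity values on a linear scale, which the submitters' processing notes ascribe to MAS5 (version not given in the sources used here). Each array's trimmed mean (2% left out at each end) was 250.02, so the authors had scaled the arrays alike, and 0 columns were unmapped. The number of arrays limits precision.

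Probe sets were named through the platform annotation and the RefSeq TAIR10.1 gene table. Of 22746, 13513 had 1 gene (13436 matched), 503 several and 8730 none listed. No coordinates are printed, as the sources used here tie the array to no genome build.

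Signals were transformed as log2(signal + 16). The 64 controls and the 40% of probe sets with the lowest mean were left out, at a signal of about 51.3, and limma 3.58.1, run in R 4.3.3, tested the remaining 13647 (trended prior, 2 residual degrees of freedom, Benjamini-Hochberg threshold 0.05), checked on simulated data. Members, lists and neighbours were chosen with earlier results of these data known. All 8 genes are described. Of listed genes, the rule named the 2 largest rises and falls per list, and of other probe sets within the limits those whose gene has a symbol. Others, such as PUB24 and the uncalled markers, were named after their values were seen. Neighbours were added after the files were seen. Promoter and protein comparisons that had been planned were not run, because no sequence table was used here.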

Additional observations from a re-analysis of the deposited data

How the results depend on the processing

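All 8 genes stayed called higher with offsets of 4 or 64, a 20% filter, median, quantile or spike-in scaling, one prior variance, an adjusted p under 0.01, and without organelle probe sets, an alternative chosen after seeing the data. Without the filter 6 were. With 1 array left out, where the lone array is assumed to vary like the other group, the number called ranged from 3 to 7: 3 of 8 tested without whole-root replicate 1, 5 of 8 without whole-root replicate 2, and all of those tested without sorted-protoplast replicate 1 (7) or 2 (5), the others having fallen under the filter. Whether arrays with the same replicate number belong together is not given by the labels (correlation of same-numbered deviations -0.156). With the replicate block 8 of the 8 and 3 neighbours were called, and with crossed replicate numbers, also added later, 8 of the 8. In the replicate block fit the limma adjusted p of AT5G58680 fell from 0.000391 to 7.11e-22. The calls of that fit are therefore not read as firmer. The median log2 difference of the 8 genes was 2.63 with an offset of 64, by construction, and otherwise ranged from 3.22 to 4.18, including 3.54 with whole-root signals raised to the highest control, added later. Over all tested probe sets the median was -0.57 with spike-in scaling. The signal limits chose 3 genes at 30 and 300, 24 at 50 and 150, and 12 to 25 with 1 array left out. Quantile normalization kept 7 and spike-in scaling 6 of the 8. Of the neighbours, 1 was called with no filter, spike-in scaling, an adjusted p under 0.01 or only the nearest genes. With 1 array left out AT3G28580 lost its call or was not tested each time. AT5G57500 lost its call except without sorted-protoplast replicate 2. Over the 8 genes, 124 single comparisons in which the gene was tested lost the call in 10 (2 without the filter, 8 without a whole-root array) and reversed in 0. The limits that chose the 8 genes also fixed their direction, so nothing is read from calls kept or from the lack of reversals. The W-box and protein similarity alternatives were not run. Causes were not tested unless stated.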

Other observations

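Most probe sets within the same signal limits had no gene listed in the annotation used here. The 21 unlisted probe sets had a median log2 difference of 4.59, with a range from 2.95 to 5.87, and the 2 that match several genes had 4.09 and 5.19. All 21 were tested, and 12 of them were higher on sorted-protoplast replicate 2 than on replicate 1. Their genes are not named here.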
